A study of Mus musculus with 9 samples.

Results

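The 7 genes described here encode the mouse receptors for the constant region of IgG and IgE that are named as Fc gamma or Fc epsilon receptors, together with their shared signalling chain and the neonatal Fc receptor. They are Fcgr1, Fcgr2b, Fcgr3, Fcgr4, Fcer1g, Fcer2a and Fcgrt, taken by symbol from the 24346 genes with a value in the 9 libraries. The members were chosen by name after their measured difference between age-associated B cells (ABCs) and follicular (FO) B cells was known, so that difference is given below as a description without a test. RNA was sequenced from sorted splenic B cells of C57BL6 wild-type mice in 3 groups of 3 libraries, namely FO B (Young) at 8 weeks, FO B (Aged) at 50 weeks and ABCs (Aged) at 50 weeks. All cells were gated as B220hi, CD43- and CD21lo, with FO B cells CD23+ and ABCs CD23-, CD11b+ and CD11c+. No group carried a transgene or a treatment. The labels number the libraries within each group, and a figure legend of the paper gives 3 mice a group, without stating whether animals were pooled.

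Fc receptors let a cell sense antibody that has bound its antigen. The activating receptors FcγRI, FcγRIII and FcγRIV, encoded by Fcgr1, Fcgr3 and Fcgr4, need the common gamma chain encoded by Fcer1g, whose immunoreceptor tyrosine-based activation motif (ITAM) is phosphorylated by Src-family kinases and then binds Syk. FcγRIIB, encoded by Fcgr2b, carries an inhibitory motif (ITIM) that recruits the phosphatase SHIP-1, and it is known as the classical IgG Fc receptor of B cells. Fcer2a encodes CD23, the low-affinity IgE receptor, a C-type lectin that is displayed by FO B cells, and Fcgrt encodes the heavy chain of FcRn, which pairs with beta-2-microglobulin and returns IgG from endosomes to the cell surface.

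In the GENCODE M21 annotation of GRCm38, 4 members lie within 275.7 kb of chromosome 1. These are Fcgr2b (chr1:170958617-170976547, minus strand), Fcgr4 (chr1:171018920-171029761, plus strand), Fcgr3 (chr1:171051174-171064935, minus strand) and Fcer1g (chr1:171229572-171234365, minus strand). Fcgr1 lies at chr3:96282909-96293969, Fcgrt at chr7:45092990-45103851 and Fcer2a at chr8:3681737-3694175, all on the minus strand. Fcgr2b and Fcgrt each overlap an annotated gene on the other strand, Gm38204 and Gm45669. Whether the libraries kept strand is not given in the sources used here, so reads of these pairs cannot be taken as told apart. Fcgr3 and Fcgr4 each overlap a small annotated gene on their own strand, Mir6546 and Gm26110. Fcgr2b and Fcgr3 resemble each other in sequence. Of the 1247 windows of 1 read length in the longest Fcgr3 transcript, 42 (3.37%) were also found in an Fcgr2b transcript, so the few Fcgr3 reads described below are uncertain.

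The 250 bases before the annotated start of the 4 genes with appreciable levels are shown because Fcgr2b and Fcer1g were higher in ABCs while Fcer2a and Fcgrt were lower. They are RefSeq sequences of GRCm38.p6 on the minus strand, read 5′ to 3′, at chr1:170976072-170976321 for Fcgr2b, chr1:171234350-171234599 for Fcer1g, chr8:3694175-3694424 for Fcer2a (the most upstream of 3 starts) and chr7:45103823-45104072 for Fcgrt. The window of Fcgr2b ends at its RefSeq start, which lies inside the gene as GENCODE annotates it (to 170976547). That window is therefore not upstream of the GENCODE start. The windows of Fcer1g, Fcer2a and Fcgrt overlap only the outermost bases of the GENCODE genes (to 171234365, 3694175 and 45103851). Distances below are counted from the RefSeq starts. Capitals mark matches to the 6 bases AGGAAG, the core of many PU.1-type ETS sites, on either strand.
Fcgr2b: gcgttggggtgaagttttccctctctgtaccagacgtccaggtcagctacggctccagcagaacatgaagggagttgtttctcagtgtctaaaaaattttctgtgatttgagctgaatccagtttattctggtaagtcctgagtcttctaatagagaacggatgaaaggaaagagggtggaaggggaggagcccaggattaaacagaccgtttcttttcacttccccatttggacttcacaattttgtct
Fcer1g: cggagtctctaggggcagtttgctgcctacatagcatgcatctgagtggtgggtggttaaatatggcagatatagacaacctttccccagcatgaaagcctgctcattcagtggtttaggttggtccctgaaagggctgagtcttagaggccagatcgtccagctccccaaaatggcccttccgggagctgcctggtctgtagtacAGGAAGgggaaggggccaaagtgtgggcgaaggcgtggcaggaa
Fcer2a: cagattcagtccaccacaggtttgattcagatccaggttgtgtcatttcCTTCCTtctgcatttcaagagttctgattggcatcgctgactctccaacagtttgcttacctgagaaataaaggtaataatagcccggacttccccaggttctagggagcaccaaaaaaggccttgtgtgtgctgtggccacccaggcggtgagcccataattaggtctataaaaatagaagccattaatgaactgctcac
Fcgrt: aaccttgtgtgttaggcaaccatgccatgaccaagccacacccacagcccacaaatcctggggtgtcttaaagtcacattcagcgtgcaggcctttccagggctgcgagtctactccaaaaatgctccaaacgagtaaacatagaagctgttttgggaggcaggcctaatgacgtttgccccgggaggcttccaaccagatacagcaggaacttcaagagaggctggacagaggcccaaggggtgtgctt
AGGAAG was present once for Fcer1g, 44 bases before the start, and once for Fcer2a, 201 bases before it in the opposite orientation, and it was not found in the windows of Fcgr2b and Fcgrt. Of 32536 distinct mouse promoter windows of this length, 29.6% held a match. None of the 4 windows held GGTGTGA, the T-box core bound by factors such as T-bet (3.33% of all windows), CACCTG, the E-box bound by ZEB-type factors (17.3%), or the STAT palindrome of TTC and GAA 4 bases apart (5.89%). No AGGAAG match overlapped one of another motif. These are matches of letters in 1 short window per gene, with no binding data behind them.

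Expression was deposited as FPKM, in which read numbers are scaled to transcript length and to library depth, and differences are given on the log2(FPKM + 1) scale from limma. Read numbers were recovered from the steps between low FPKM values for 5 members, and the same steps gave about 8080000 to 9830000 mapped reads a library. Genes at or above 1 FPKM numbered 10032 to 10125 in the FO B libraries and 10303 to 10445 in the ABCs. The cell type was checked on 8 B lineage genes, which summed to between 8891 and 10812 FPKM in every library, and on Tbx21, the gene of T-bet, which stood at 165 to 189 FPKM in ABCs and 1.94 to 8.72 in FO B cells. ABCs (Aged) replicate 3 stood apart from the other ABC libraries in Cr2, the gene of CD21, at 0.745 against 4.93 and 8.39 FPKM, and it is given separately below.

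Fcgr2b, the inhibitory receptor gene, was the only one of Fcgr1, Fcgr2b, Fcgr3 and Fcgr4 to reach 1 FPKM. It measured 121, 129 and 120.3 FPKM in FO B (Young), 182, 149 and 189.7 in FO B (Aged), and 804, 738 and 803 in ABCs (Aged). The ABC libraries lay within a narrow range, and no library of any group overlapped another group. The means were 124 ± 4.90, 173 ± 21.4 and 782 ± 38.1 FPKM (SD, n = 3). ABCs exceeded FO B (Aged) by 4.51-fold, a log2 difference of 2.17 with a standard error (SE) of 0.10, and FO B (Young) by 6.32-fold, 2.65 (SE 0.06). With each library left out in turn the difference from FO B (Aged) was 2.07 to 2.24. Within each ABC library Fcgr2b ranked above at least 98.6% of the genes at or above 1 FPKM, compared with 91.6% to 94.6% across the FO B libraries.

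**Figure D1:**
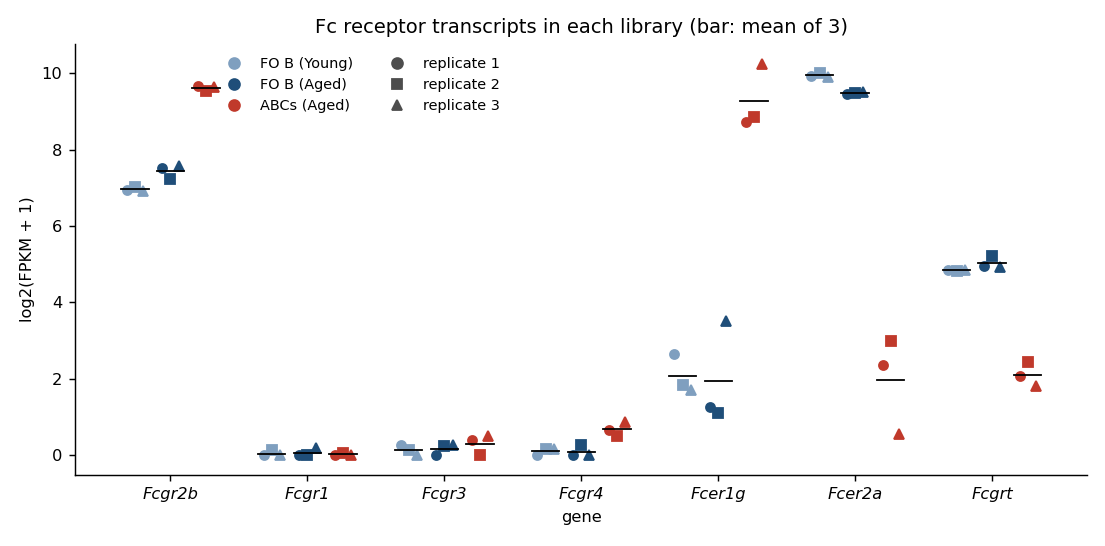
The plot of member levels shows log2(FPKM + 1) on the vertical axis for each of the 7 genes, with 1 point per library, colour for the group, symbol for the replicate and a bar at the mean of 3. Fcgr2b and Fcer1g stood highest in ABCs, Fcer2a and Fcgrt stood lowest there, and Fcgr1, Fcgr3 and Fcgr4 stayed below 1 FPKM in every library.

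The 3 activating receptor genes were close to the limit of detection in every group. Fcgr1, which encodes the high-affinity IgG receptor, was covered by 0, 2 and 0 reads in FO B (Young), 0, 0 and 3 in FO B (Aged), and 0, 1 and 0 in ABCs. Fcgr3 had 2, 1 and 0 reads, 0, 2 and 2 reads, and 3, 0 and 4 reads in the same order of groups. A count of 0 allows up to 3 reads, so neither gene could be ordered between groups at this depth.

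Fcgr4, which encodes a receptor for IgG2a and IgG2b, had 0, 1 and 1 reads in FO B (Young), 0, 2 and 0 in FO B (Aged) and 5, 4 and 7 in ABCs. The ABC libraries were all above the FO B libraries, at 0.587, 0.425 and 0.816 FPKM against at most 0.195. The 16 reads of ABCs against 2 of FO B (Aged) gave a ratio per mapped read of 8.43, with an exact 95% interval of 1.98 to 75.6 that covers counting error only, not the spread between mice, and is no test of the groups. Even so, the level was low. Summed over Fcgr1, Fcgr3 and Fcgr4, ABCs held 0.908, 0.472 and 1.24 FPKM, and Fcgr2b exceeded this sum by 886, 1565 and 648-fold in the same libraries.

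The gamma chain gene Fcer1g showed the widest spread between groups of the genes that were higher in ABCs. It measured 5.32, 2.56 and 2.29 FPKM in FO B (Young), on 21, 10 and 9 reads, and 1.38, 1.14 and 10.4 in FO B (Aged), on 5, 5 and 41 reads. In ABCs it measured 418, 458 and 1219 FPKM, on 1526, 1845 and 4479 reads. Replicate 3 was the high library in both aged groups, the FO B and ABC groups did not overlap, and the lowest ABC library was far above the highest FO B library. The ABC mean of 698 ± 451 FPKM (SD, n = 3) was 162-fold that of FO B (Aged), a log2 difference of 7.32 (SE 0.69), and 206-fold that of FO B (Young), 7.20 (SE 0.43). The former was 6.83 without ABCs (Aged) replicate 3 and 8.09 without FO B (Aged) replicate 3, which were the lowest and highest values with 1 library left out.

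In FO B (Aged) replicate 3, the library with 10.4 FPKM of Fcer1g, neutrophil genes were also highest. The 10 neutrophil markers summed to 28.8 FPKM there, against 2.97 to 12.1 in the other FO B libraries and 2.92 to 5.04 in ABCs, with S100a8 at 15.2 and Retnlg at 2.57. Elane was at 0 in all libraries. The part of these markers in the Fcer1g value of that library was not tested.

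Myeloid and natural killer cells also express Fcer1g, so markers of these cells were read in ABCs. The 15 macrophage and monocyte markers summed to 277 to 324 FPKM in ABCs, 22.9 to 41.2 in 5 of the FO B libraries and 61.7 in FO B (Young) replicate 3, where Lyz2 stood at 16.6. Adgre1, the gene of F4/80, made up most of the ABC sum at 174 to 222 FPKM, and Ly6c2 added 61.3 to 84.1. Of the 15 markers 6 had a mean of at least 1 FPKM in ABCs, as did 5 in FO B (Aged). Cd68 had a mean of 10.7 FPKM in ABCs and 4.17 in FO B (Aged), C1qc of 2.25 and 0.72, and Ccr2 of 0.77 and 0.04. Csf1r was at 0.30 to 0.83 FPKM in ABCs, Cd14 at 0.15 to 0.25 and Vsig4 at 0 in every library. The 8 natural killer markers summed to 29.45 to 38.2 FPKM in ABCs and 0.789 to 3.69 in FO B cells. Prf1, which encodes perforin, gave 25.5, 24.1 and 38.0 FPKM of the ABC sums. Klrd1 measured 2.99, 3.21 and 0 and Nkg7 2.03, 1.84 and 0.202 in ABCs, with means of 0.29 and 0.12 in FO B (Aged), while Ncr1 was at most 0.09 and Gzmb at 0. Dendritic cell markers (6 genes) summed to 7.12, 6.86 and 4.04 FPKM in ABCs and 2.46 to 5.08 in FO B cells. Zbtb46 had a mean of 3.17 FPKM in ABCs and 0.85 in FO B (Aged), and Siglech of 1.13 and 0.12, while Flt3 was lower in ABCs, at 0.76 and 2.18. Mast cell and basophil markers (7 genes) summed to at most 0.535 in any library. In bulk samples fewer cells of a type and less RNA per cell cannot be told apart, and the share of Fcer1g that comes from other cells was not tested.

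**Figure D2:**
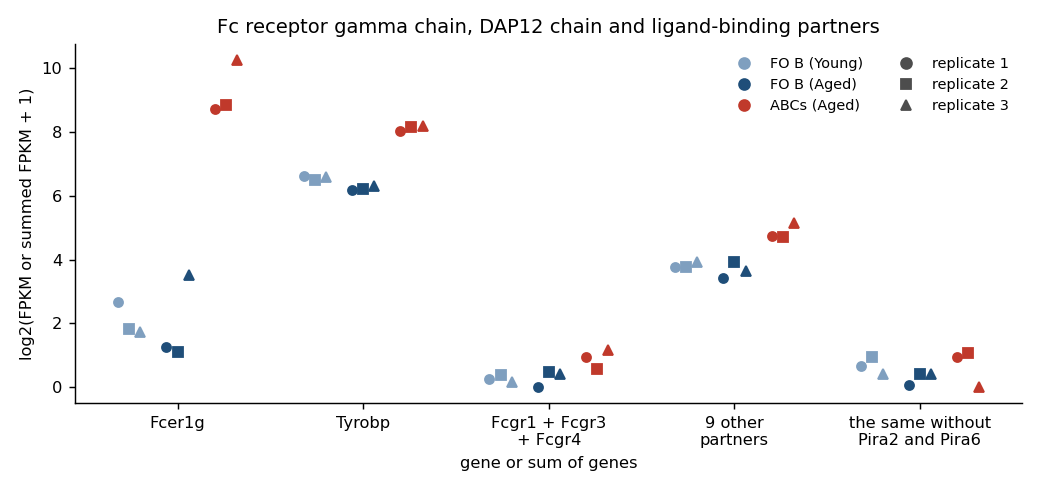
This plot sets Fcer1g beside Tyrobp, the sum of Fcgr1, Fcgr3 and Fcgr4, and the sums of other gamma chain partners, as log2(FPKM or summed FPKM + 1), 1 point per library. In ABCs Fcer1g reached 418 to 1219 FPKM while the 3 activating Fc gamma receptors together stayed at or below 1.24 FPKM.

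Tyrobp encodes DAP12, another small ITAM chain that pairs with receptors lacking a signalling tail. It measured 98.1, 89.8 and 96.1 FPKM in FO B (Young), 70.9, 72.6 and 77.9 in FO B (Aged) and 264, 287 and 292 in ABCs, and it rose against FO B (Aged) by 1.91 (SE 0.07, adjusted p = 9.0e-06, limma). The ABC libraries were close to each other in Tyrobp, unlike in Fcer1g. Fcer1g per Tyrobp was 0.0157 to 0.133 in the FO B libraries and 1.59, 1.59 and 4.18 in ABCs. Tyrobp was the only one of 4 adaptor chain genes tested to pass in either ABC comparison. Hcst (DAP10) and the B cell receptor chains Cd79a and Cd79b did not pass, and Cd247 was below the 1 FPKM filter.

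The gamma chain also serves receptors other than Fc receptors. Of 9 such genes, 7 (among them Oscar, Clec4e, Clec4d, Clec4n, Gp6 and Ncr1) fell below the filter, and their sum was 0.909, 1.11 and 0 FPKM in ABCs. Only 2 could be tested, Pira2 and Pira6 of the paired immunoglobulin-like receptor family. Both rose in ABCs against FO B (Aged), by 1.12 (SE 0.18, adjusted p = 0.0035, limma) and 1.16 (SE 0.22, adjusted p = 0.0061, limma). Of all genes 35.9% passed in that comparison. The call of Pira6 was lost without a filter on low values (adjusted p = 0.054, limma). Pira2 measured 20.5, 18.4 and 26.7 FPKM in ABCs and 8.10, 12.1 and 8.51 in FO B (Aged). Members of this family are near-identical copies, so the assignment of reads among them is uncertain.

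Fcer2a was the highest of the 7 genes in FO B cells and nearly absent from ABCs. It measured 967, 1036 and 948 FPKM in FO B (Young), 697, 716 and 728 in FO B (Aged), and 4.15, 6.95 and 0.463 in ABCs. The difference between ABCs and FO B (Aged) was -7.51 (SE 0.55), and its protein, CD23, was one of the markers on which FO B cells and ABCs were separated. The lowest ABC library was replicate 3, the one with the most Fcer1g, and without it the difference was -6.80.

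Fcgrt, like Fcer2a, was lower in ABCs, although its product took no part in the sort. It measured 27.9, 27.4 and 27.7 FPKM in FO B (Young), on 379, 367 and 373 reads, 29.7, 36.2 and 29.4 in FO B (Aged), on 369, 547 and 399 reads, and 3.19, 4.41 and 2.53 in ABCs, on 40, 61 and 32 reads. The ABC libraries did not overlap the FO B libraries. Fcgrt was 9.41-fold lower in ABCs than in FO B (Aged), with a difference of -2.92 (SE 0.17), and 8.19-fold lower than in FO B (Young), -2.73 (SE 0.16). Without any 1 library the former stayed between -3.08 and -2.78, the latter without ABCs (Aged) replicate 3.

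The 7 members were selected on the difference between ABCs and FO B cells, so their counts in that contrast describe the selection and are no test. Of the 7, 4 had a mean of at least 1 FPKM, and all 4 lay past the threshold used for the other genes, 2 higher and 2 lower in ABCs than in FO B (Aged). Over all 10412 genes tested in that comparison 35.9% passed, 19.4% higher and 16.5% lower (2020 and 1719 genes, against 2455 and 601 with upper quartile scaling, 1743 and 2145 with quantile normalization, and 1891 and 1954 with scaling to TPM). The groups did not overlap for 5 of the 7 members, Fcgr4 being the fifth, and for 52.6% of all genes tested. Against FO B (Young) 40.7% of 10438 genes passed, and the same 4 members lay past the threshold.

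**Figure D3:**
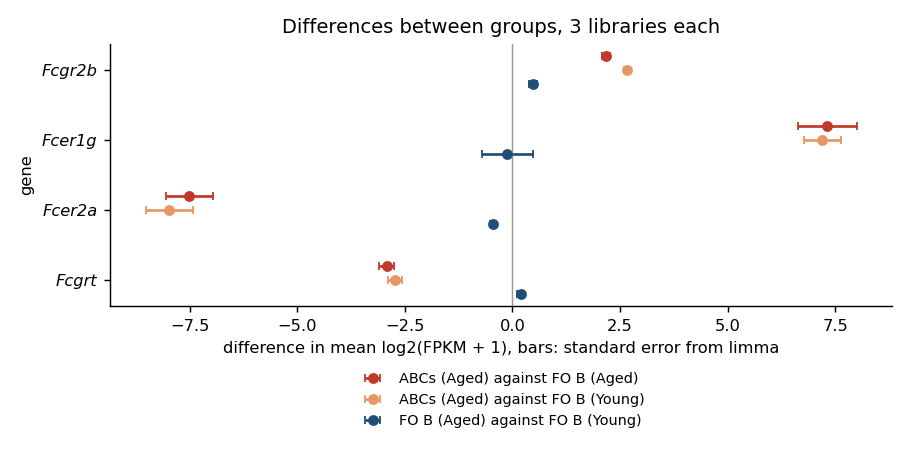
The plot of differences gives the change in mean log2(FPKM + 1) for the 4 members above the filter in 3 comparisons, with the SE from limma as bars. Both ABC comparisons give 2.17 to 2.65 for Fcgr2b and more than 7 for Fcer1g, whereas the values for FO B (Aged) against FO B (Young) all lie between -0.46 and 0.48.

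The comparison of FO B (Aged) with FO B (Young) asks whether the same genes differ with age within 1 B cell subset, and it was not used to choose them. Only Fcer2a passed the test. It was 27.5% lower in FO B (Aged), 714 ± 15.7 against 984 ± 46.2 FPKM (SD, n = 3), a difference of -0.46 (SE 0.05, adjusted p = 0.0109, limma), and every aged library lay below every young library. Of 10122 genes tested 0.464% passed, 35 higher and 12 lower (23 and 27 with upper quartile scaling). All FO B cells had been gated as CD23+, so the value refers to cells above that gate at both ages. An exact two-sided permutation test of the mean gave p = 0.1, the smallest that 3 libraries against 3 allow. The call was lost when FO B (Aged) replicate 1, FO B (Young) replicate 1 or FO B (Young) replicate 2 was left out (adjusted p = 0.0523, 0.0637 and 0.0606, limma), with the difference between -0.49 and -0.42 throughout.

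Fcgr2b was 40.3% higher in mean FPKM in FO B (Aged), a difference of 0.48 (SE 0.09), but it did not pass the test (adjusted p = 0.0858, limma). The groups did not overlap, and the adjusted p was 0.0113 without FO B (Aged) replicate 2, the lowest aged library, and up to 0.247 without another. Fcgrt differed by 0.19 (SE 0.09, adjusted p = 0.425, limma), again without overlap. Fcer1g differed by -0.12 (SE 0.59, adjusted p = 0.959), although its mean FPKM was 1.27-fold higher in the aged cells, since 1 aged library was high and the others were low, and the difference ranged from -0.90 to 0.31 with 1 library left out. Groups did not overlap for 3 of the 4 members tested, beside 18.6% of all genes tested. For each of those 3 the exact permutation p was 0.1. Fcgr2b and Fcer2a differed in opposite directions, and Fcgr2b per Fcer2a was 0.125, 0.125 and 0.127 in FO B (Young) and 0.261, 0.208 and 0.261 in FO B (Aged).

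Genes around these receptors were then read from lists chosen by function, beginning with the ITAM pathway through which the gamma chain signals. These lists, and those of adaptor chains and gamma chain partners above, were drawn up with earlier results of these data known. Their counts and adjusted p-values are therefore a description and no independent evidence about a pathway. Of its 25 genes 22 were tested, and in ABCs against FO B (Aged) 10 rose, 4 fell and 8 did not pass (63.6% called, beside 35.9% of all genes), with a median difference of 0.19 beside -0.01 for all genes. Lcp2, the adaptor SLP-76, rose by 3.55 (SE 0.38), from 0.392, 0.129 and 0.466 FPKM to 10.3, 9.94 and 29.0. It was below 1 FPKM in every FO B library and passed the filter only through ABCs. Its call, counted among the 10, is therefore a description only. Its highest library was again ABCs (Aged) replicate 3. Syk, the kinase that docks on phosphorylated ITAMs, rose by 1.33 (SE 0.08), from between 147 and 154 FPKM to between 353 and 418. Fgr, a Src-family kinase, rose by 1.14 (SE 0.12). On the other side Vav3, a guanine nucleotide exchange factor, had a difference of -1.82 (SE 0.18), Pik3cg of -0.47 (SE 0.11), the Tec-family kinase Btk of -0.44 (SE 0.09) and Bcl10 of -0.40 (SE 0.07). The call of Pik3cg was lost without ABCs (Aged) replicate 1 or without FO B (Aged) replicate 1 or 2, and those of Pik3cg, Btk and Bcl10 were lost with upper quartile scaling (adjusted p up to 0.0849, 0.262 and 0.222, limma). Against FO B (Young) 12 rose and 4 fell (72.7%, beside 40.7% of all genes).

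The ITIM list holds the effectors of FcγRIIB. All 8 genes were tested in ABCs against FO B (Aged), 3 rose and none fell (37.5%, near the 35.9% of all genes), with a median of 0.37. Inppl1, the gene of SHIP-2, rose by 1.17 (SE 0.17), from 1.38, 1.82 and 1.06 FPKM to 4.07, 5.24 and 3.98. The adaptors Dok3 and Dok1 rose by 0.62 (SE 0.20) and 0.38 (SE 0.10), but these calls were lost when any of several single libraries was left out, ABCs (Aged) replicate 1 and FO B (Aged) replicates 1 and 2 among them for both genes (adjusted p over all alternatives up to 0.231 and 0.0804, limma). SHIP-1 itself, encoded by Inpp5d, measured 69.8, 68.9 and 70.4 FPKM in FO B (Aged) and 74.4, 73.4 and 72.3 in ABCs, a difference of 0.07 (SE 0.06) that did not pass, and Ptpn6, the gene of SHP-1, differed by 0.07 (SE 0.14). Fcgr2b per Ptpn6 lay between 0.181 and 0.211 in FO B (Aged) and between 0.737 and 0.954 in ABCs.

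**Figure D4:**
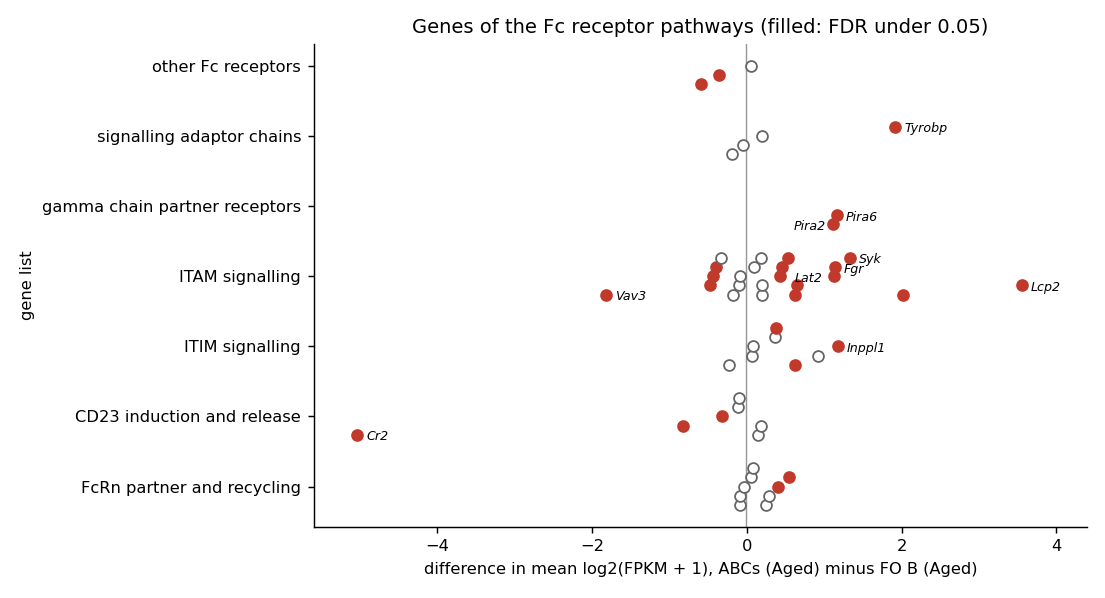
This plot places each tested gene of 7 lists by its difference in mean log2(FPKM + 1) between ABCs (Aged) and FO B (Aged), with filled points for adjusted p below 0.05 and a line at the median of all genes, -0.01. Most genes beyond 1 in either direction are named, from Cr2 at -5.04 to Lcp2 at 3.55.

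For CD23, the list of 7 genes covered its induction by IL-4 and its shedding, and it also held the gene of CD21. In ABCs against FO B (Aged) none rose, 3 fell and 4 did not pass, with a median of -0.12. The 3 genes are 42.9% of the list, beside 35.9% of all genes. Cr2, the gene of CD21, measured 166, 127 and 159 FPKM in FO B (Aged) and 4.93, 8.39 and 0.745 in ABCs, a difference of -5.04 (SE 0.55, adjusted p = 0.00064, limma), and both groups were gated as CD21lo. Il4ra, the IL-4 receptor alpha chain, fell by 0.83 (SE 0.07), from between 75.8 and 77.7 FPKM to between 40.3 and 45.8, and Il2rg by 0.32 (SE 0.07), the latter losing its call without FO B (Aged) replicate 1 and with upper quartile scaling (adjusted p up to 0.507, limma). Stat6 and Adam10, the transcription factor downstream of the IL-4 receptor and the protease that sheds CD23, had differences of -0.10 (SE 0.09) and 0.18 (SE 0.09) that did not pass.

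In the FcRn list, 9 of 10 genes were tested, 2 rose and none fell (22.2%, beside 35.9% of all genes), with a median of 0.07, whereas Fcgrt itself was lower. B2m, the partner chain, rose by 0.41 (SE 0.08, adjusted p = 0.0086, limma), from between 4560 and 4743 FPKM to between 6035 and 6504, with the call lost under quantile normalization and without a filter (adjusted p up to 0.339). B2m per Fcgrt lay between 131 and 161 in FO B (Aged) and between 1381 and 2566 in ABCs. Of the endosomal genes, Rab4b rose by 0.54 (SE 0.05), and the remaining 7 tested, including Rab11a, Rab11b and Rab5a, did not pass. Among other Fc receptors, Fcmr, the IgM receptor, differed by 0.05 (SE 0.13) between ABCs and FO B (Aged) at 1295 to 1763 FPKM in ABCs. Pigr, the polymeric immunoglobulin receptor, and Trim21, a cytosolic antibody receptor, fell by 0.60 (SE 0.19) and 0.36 (SE 0.11). Both calls were lost without ABCs (Aged) replicate 1, FO B (Aged) replicate 1 or FO B (Aged) replicate 3 and under other settings, with adjusted p up to 0.132 and 0.302 (limma). Fcamr, the receptor for IgA and IgM, lay below the filter there, at 0.283 ± 0.168 against 1.30 ± 0.201 FPKM (SD, n = 3). Fcer1a and Ms4a2, the further chains of the high-affinity IgE receptor, were at or below 0.14 FPKM in every library. Immunoglobulin heavy chain genes were not analysed here. Between FO B (Aged) and FO B (Young), no gene of any of these lists passed.

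Within 100 kb on either side of the chromosome 1 receptors, 19 other genes had a value and 13 were tested between ABCs and FO B (Aged). Of these 5 rose and 1 fell, with differences from -0.44 to 1.52. On the log2(FPKM + 1) scale all were smaller than those of Fcgr2b and Fcer1g, but this scale shrinks the change of low genes. Mean FPKM went from 0.38 in FO B (Aged) to 3.14 in ABCs for Fcrlb and from 0.63 to 3.04 for Cfap126. As ratios of means, both exceeded the 4.51-fold of Fcgr2b. Both are among the 5 that rose, and both reached the filter only through ABCs. The neighbours with the highest levels included Fcrla at 268 FPKM over the 9 libraries and Sdhc at 62.1. Fcrla, which encodes an intracellular Fc receptor-like protein of B cells, differed by 0.22 (SE 0.20) and did not pass. Sdhc, a subunit of succinate dehydrogenase, differed by 0.05 (SE 0.06).

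**Figure D5:**
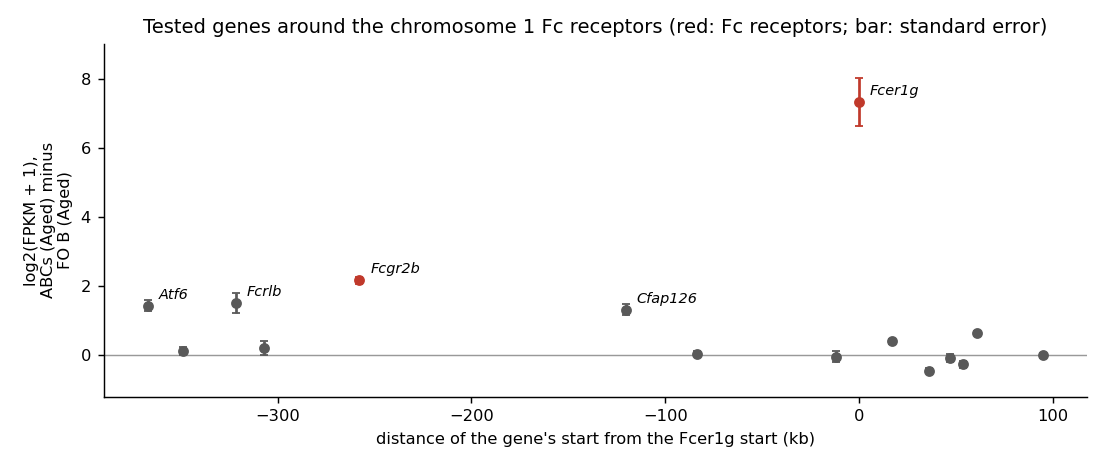
The plot of neighbouring genes gives the difference in mean log2(FPKM + 1) between ABCs (Aged) and FO B (Aged) against the distance in kb from the Fcer1g start, for tested genes, with SE as bars. On this scale, which shrinks the change of low genes, Fcer1g at 7.32 and Fcgr2b at 2.17 lie above every neighbour. The highest of these is Fcrlb at 1.52.

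The genes with the most similar pattern over the 9 libraries were ranked by Pearson's r of log2(FPKM + 1) among 10374 genes, a description that mostly follows the split between ABCs and FO B cells. For Fcgr2b they were Tmem106a, Cyfip1, Cdkn2d, Scpep1 and Magee1 (r at least 0.9956), and for Fcer1g they were Naaa, Evi2a, Wdr7, Sec11c and Tfeb (r at least 0.988). For Fcer2a they were Pxk, Satb1, Rfc1, Neurl3 and Rapgef4 (r at least 0.997), and for Fcgrt they were Slc25a37, Kcng1, Cdk19, Dennd2d and Glcci1 (r at least 0.9947). None of the members appeared in the list of another.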

How the data were processed

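RNA from 9 sorted B cell libraries was sequenced. Per the paper's methods and the labels, the authors made libraries from SMART-Seq HT cDNA, read them single-end, mapped to mm10 and deposited FPKM per gene. The submitters' processing notes name TopHat2 2.1.1, Bowtie2 2.2.8, SAMtools 0.1.18 and Cuffdiff 2.2.1, while the methods give other versions of some. The annotation, the treatment of reads with several matches and strand are not given in the sources used here. The members and lists were chosen with earlier results of these data known.

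Genes whose mean over the 6 libraries compared reached 1 FPKM were tested on log2(FPKM + 1) with limma 3.58.1 (R 4.3.3, trended eBayes, Benjamini-Hochberg adjustment, threshold 0.05), after a check on simulated data. Such a difference understates the change of low genes. The paper's legend gives 3 mice a group, but the labels do not tie a library to 1 animal, so p-values measure the spread between these libraries. Reads were recovered from FPKM steps to within 0.03 of a read, and depth from 639 genes with 1 transcript, with the transcript length less 199 bases as effective length. In the text, each list names its passing genes with the largest differences, at most 4 a direction, short lists in full, 5 nearest genes per member and the 3 highest neighbours. Inpp5d, Ptpn6, Stat6, Adam10, Fcrlb, Cfap126 and the endosomal genes that did not pass were named in addition, after their values were seen. So were Pax5, Ebf1, Cd22 and Spn among the markers. Some genes that this rule picks are not reported here. Alternatives were another pseudocount, filters, scalings, no trend, all 9 libraries together, a replicate block and each library left out.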

Additional observations from a re-analysis of the deposited data

How the results depend on the processing

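The 4 tested members kept their direction between ABCs and FO B cells in all alternatives. Shifts of at least the gene's residual SD in the main fit were as follows. Fcgr2b moved to 2.35 with upper quartile scaling against FO B (Aged) and to 2.58 with quantile normalization against FO B (Young). Fcgrt moved to -3.22 and -3.03 with a pseudocount of 0.1. With that pseudocount the more variable Fcer2a went to -8.12 and -8.58 and Fcer1g to 7.84 and 7.56. These shifts were larger but below the residual SD. For Fcer2a in FO B (Aged) against FO B (Young), the difference was -0.46 but lost its call without a filter (adjusted p = 0.101, limma), without a trend (0.0712) and with all 9 libraries (0.827), and leaving out 1 library gave -0.49 to -0.42. For Fcgr2b the latter gave 0.41 to 0.58, with a call at 0.58.

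Genes passing in FO B (Aged) against FO B (Young) numbered 47, against 30 without a trend, 18 with all 9 libraries, 19 to 69 with 1 library left out (19 without FO B (Aged) replicate 1) and 2 at an absolute difference above 2.3 and adjusted p below 0.01. At that limit 200 passed between ABCs and FO B (Aged) and 230 against FO B (Young), where upper quartile scaling left 2779 of 4248. With upper quartile scaling the median difference of all genes was 0.15 in ABCs against FO B (Aged) and -0.12 in FO B (Aged) against FO B (Young), beside -0.01 and 0.00 as given. The share of higher calls in these comparisons went from 54.0% to 80.3% and from 74.5% to 46.0%, and in ABCs against FO B (Young) from 53.0% to 66.6%. In the ABC comparisons it was 44.8% and 44.0% with quantile normalization and 49.2% and 47.2% with scaling to TPM, so that lower calls became the majority. Without a filter it was 44.7% in FO B (Aged) against FO B (Young).

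Whether equal replicate numbers mark the same mouse is not stated, and the values cannot settle it. Correlations of same-numbered deviations were -0.0921 to 0.138 over all comparisons. For ABCs against FO B (Aged) they were 0.0845, -0.019 and 0.108 for replicates 1, 2 and 3. The highest correlations with another number were 0.02, 0.0589 and 0.000697. With a replicate block, 3448, 3508 and 37 genes passed, and Fcer2a stayed at -0.46 (adjusted p = 0.0371, limma). Depth limited Fcgr1, Fcgr3 and Fcgr4, each with at most 7 reads a library. Of 255 alternative values of the 17 list counts above 0, 222 were within 1.5 times the count given, 31 smaller and 2 larger. The count of other Fc receptors that fell against FO B (Aged) was smaller in 11 of 15 settings.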
